A study of Mus musculus with 3 samples.

Results

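Forkhead genes encode transcription factors that share the winged-helix DNA-binding domain of Foxp3, and 36 of the 21631 protein-coding genes examined on chromosomes 1 to 19 and X are forkhead genes outside the Foxp and Foxo subfamilies. They were taken by symbol from the RefSeq gene table (Fox, then a subfamily letter from a to s, then a number), a rule that uses no measured value. Binding was assayed by CUT&RUN, in which an antibody tethers a nuclease to its target in permeabilised cells and the DNA fragments cut free are sequenced. The cells were mouse bone marrow-derived macrophages, grown with M-CSF, the macrophage growth factor, supplied as conditioned medium, and fixed in 0.1% formaldehyde for 2 min. The series holds 3 samples, made of 2 libraries with a Foxp3 antibody (replicates 1 and 2) and 1 library with an isotype IgG, and both Foxp3 libraries were analysed by their peaks. Stimulation by danger molecules from brain tissue is part of the study's title, but the labels do not tie it to a library. They give no strain, age or genotype, and do not state whether replicates were separate cultures, so the spread between them may be technical. No IgG values were analysed here, so no value below has a background library beside it.

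Forkhead factors recognise related DNA words with the core TGTTTAC or close variants, and the family covers very different tissues. Foxa proteins are pioneer factors of endoderm that can bind nucleosomal DNA, while Foxc, Foxd, Foxf and Foxl genes shape mesoderm and neural crest derivatives. Foxj, Foxk, Foxm and Foxn genes include regulators used by many dividing or differentiated cells. Foxp3 itself is best known from regulatory T cells.

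Replicate 1 held 33294105 fragments and 556535 peaks, and replicate 2 held 34898401 fragments and 95135 peaks. A peak was thus far easier to find in replicate 1 at a similar number of fragments. The libraries also differed in the fragment size given at peak calling, 130 bp in replicate 1 and 180 bp in replicate 2. A site, as used here, is a peak that reaches into the 1000 bp on either side of either annotated gene end. Peaks do not measure expression, so the macrophage label could not be checked by marker levels. For orientation, 7 of 10 macrophage marker genes had a site in both replicates, as did 4 of 8 T cell, 3 of 5 B cell and 2 of 5 neutrophil markers, beside 62.2% of all protein-coding genes.

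Most forkhead genes carried a site. In both replicates a site was found at 33 of the 36 genes (91.7%), against 62.2% of all protein-coding genes and 66.5% when olfactory and vomeronasal receptor genes were left out. In replicate 1 all 36 had a site, where 86.1% of all genes did. Replicate 2 had one at 33 genes, against 63.3% of all genes, and it therefore set the count in both. Foxa1, Foxr1 and Foxr2 were without a site in replicate 2. When replicate 1 was cut to its strongest peaks by fold, in the number replicate 2 holds, 21 of 36 genes had a site in both, against 49.3% of all genes. The genes lost included Foxb1, Foxc1 and Foxf1, whose folds are low. These are shares of genes in the same 2 libraries, given as a description with no test.

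A site in both lists does not require the same place. At 32 of 36 genes (88.9%) a peak of replicate 1 and a peak of replicate 2 shared 1 bp or more, against 57.9% of all genes and 61.9% without the olfactory and vomeronasal receptor genes. Foxh1, the partner of Smad proteins in nodal signalling, was the gene with a site in both lists and no overlap. The strongest peaks of the replicates were the ones that overlapped at 26 of 36 genes (72.2%), against 48.3% of all genes. These shares are parts of the 88.9% and 57.9% with any overlap. At Foxa2, Foxc1, Foxd1, Foxj1, Foxl2 and Foxs1 other peaks made the overlap, so their highest folds in the replicates, given below, come from different places. Under a stricter overlap of 50% of both lengths, 16 of 36 genes (44.4%) remained called, close to the 43.7% of all genes. The share thus fell from 88.9% at forkhead genes and from 57.9% at all genes. Between overlapping peaks, 1 pair per gene, the summits lay from 2 to 985 bp apart with a median of 208 bp. In 9 of 32 pairs the summits lay within 100 bp. No such distances over all genes stand beside these. The lists thus overlapped at most forkhead genes, but under the stricter overlap the share called was near that of all genes.

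Most forkhead genes had overlapping peaks away from the ends of other coding genes. At 29 of 36 genes (80.6%) there was an overlapping pair of peaks more than 1000 bp from the end of any other protein-coding gene, against 45.3% of all genes. This count was 16 with equal numbers of peaks by fold, against 35.5%, and 15 under the stricter overlap, against 33.6%. Foxj1, Foxj3 and Foxm1 had overlapping peaks at a shared position only, beside Rnf157, Frg2f1 and Rhno1. The strongest Foxa3 peaks lay beside Sympk, although a weaker pair at its opposite end stood alone, with fold enrichments of 6.34 in replicate 1 and 3.95 in replicate 2. Foxh1 peaks lay near Kifc2 or Ppp1r16a throughout, and a replicate 1 peak at Foxk1 lay near Ap5z1. When the ends of noncoding genes counted too, 24 genes stood alone, against 38.6% of all genes. Peaks of both replicates lay beside such an end at Foxf1 (Fendrr), Foxd2 (Foxd2os), Foxl2 (Foxl2os), Foxb1 (B230323A14Rik), Foxe1 (Gm12446) and Foxn3 (Gm26839).

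**Figure D1:**
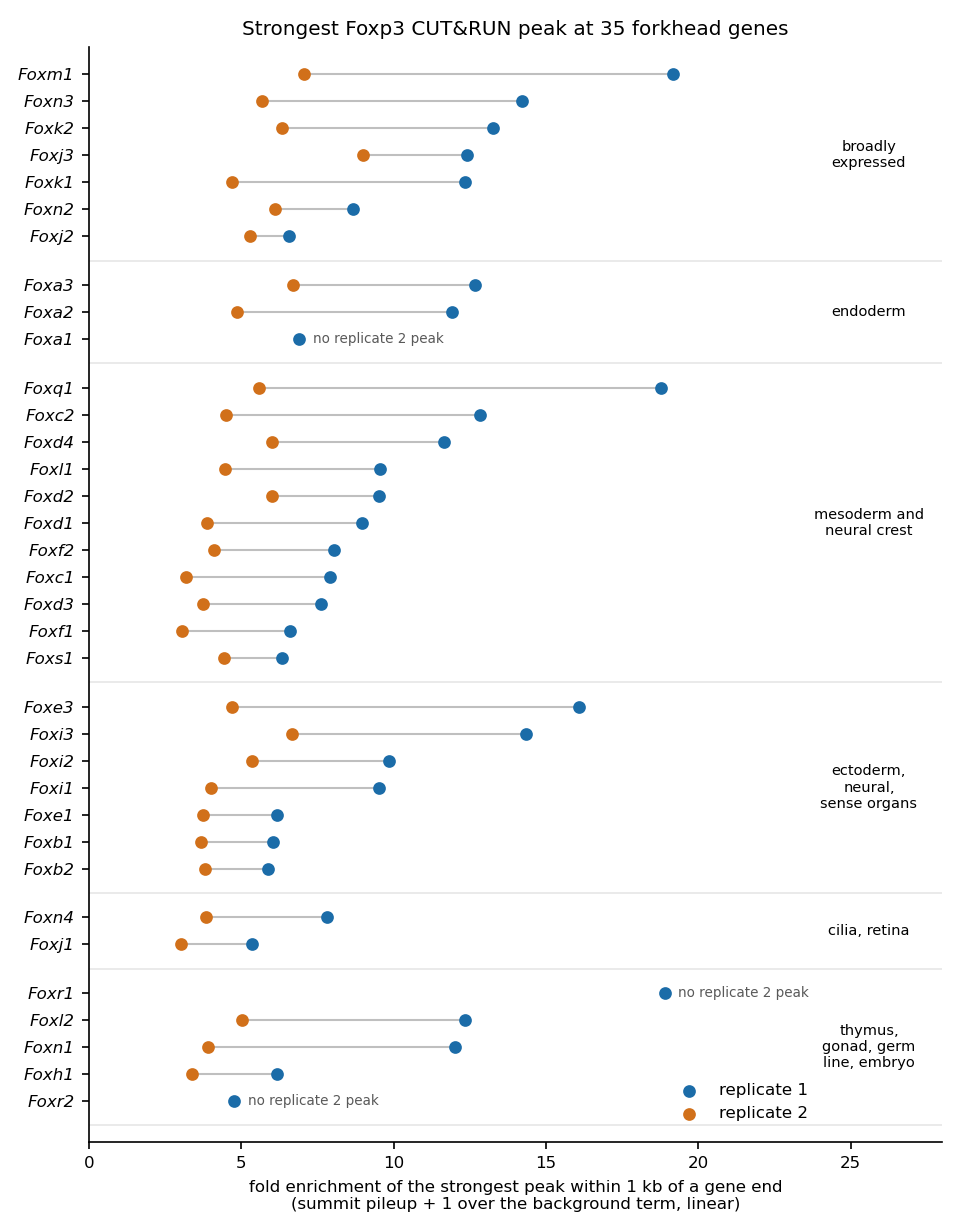
Fold enrichment (linear axis) of the strongest peak within 1 kb of a gene end at 35 of the 36 forkhead genes, replicate 1 in blue and replicate 2 in orange, grouped by developmental role. At every gene with both points the replicate 1 value is higher, and Foxa1, Foxr1 and Foxr2 have no replicate 2 peak.

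Fold enrichment is the authors' deposited value, the summit pileup plus 1 over a background term that MACS2 estimated from the same library. At the 33 genes with a site in both lists it was higher in replicate 1 every time, as it was at 96.8% of all such genes, so folds are ranked below within each replicate. The genes broadly expressed in many tissues included the leading sites. Foxm1, which drives mitotic gene expression (gene ID 14235, chromosome 6, positions 128362994 to 128375886), had the highest mean rank, with a replicate 1 fold of 19.2 and a replicate 2 fold of 7.04 (mean 13.1 ± 8.57, SD, n = 2). Its pileups were 160 and 53 fragments, and its peaks lay at the end it shares with Rhno1. Foxj3, with a role in muscle fibre type in mouse, had folds of 12.4 and 8.97 (10.7 ± 2.42, SD, n = 2), and no other forkhead gene exceeded its replicate 2 value. The Foxj3 peaks spanned 119539262 to 119540350 in replicate 1 and 119539317 to 119540259 in replicate 2 on chromosome 4, with summits 46 bp apart.

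Foxk1 and Foxk2, regulators of metabolic and autophagy genes, both carried overlapping peaks at their lower-coordinate end. Foxk2 had folds of 13.2 in replicate 1 and 6.34 in replicate 2, with pileups of 119 and 51 fragments. Foxk1 had 12.3 and 4.67, with 113 and 35 fragments. Foxk2 was thus above Foxk1 in both libraries. Foxn3, a cell cycle checkpoint factor, had folds of 14.2 and 5.67 at its higher-coordinate end, and Foxn2 had 8.65 and 6.10. Foxj2 was the lowest of this group in replicate 1, with 6.56, and had 5.29 in replicate 2. All 7 broadly expressed genes had overlapping peaks, against 57.9% of all genes. The group medians of fold were 12.4 in replicate 1 and 6.10 in replicate 2.

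Endoderm pioneer genes were uneven. Foxa3, a liver and gut factor, had folds of 12.7 in replicate 1 and 6.68 in replicate 2, and Foxa2, required for definitive endoderm, had 11.9 and 4.86. The strongest Foxa2 peaks did not overlap. Its replicate 2 peak ran from 148043856 to 148044879 on chromosome 2 and reached into the 1000 bp window by its edge, so Foxa2 was without a replicate 2 site when windows of 500 bp were used. Foxa1, central to breast and prostate epithelium, had a peak near its higher-coordinate end in replicate 1 alone, with a fold of 6.89 and 56 fragments.

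The absence at Foxa1 depended on which end was used. Its listed transcription start at position 57546111 lies 1918 bp inside the annotated gene end on chromosome 12. Around that start both replicates had a peak, from 57545599 to 57546123 with a fold of 6.07 and 77 fragments in replicate 1, and from 57545908 to 57546157 with a fold of 4.54 and 48 fragments in replicate 2. The summits lay 108 and 133 bp downstream of the start. Foxa1 therefore had peaks at its start in both libraries and within 1000 bp of an outer end in replicate 1 only.

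All 11 genes of mesoderm and neural crest had overlapping peaks away from other coding gene ends, as did 45.3% of all genes. Foxq1, counted in this group though described as a factor of hair and epithelial differentiation, was the strongest by mean rank. It had folds of 18.8 in replicate 1 and 5.56 in replicate 2 and pileups of 206 and 54 fragments. Its replicate 1 pileup was the highest of the 36 genes. Foxc2, needed for lymphatic vessels, had folds of 12.8 and 4.48, and its relative Foxc1, needed for the front of the eye, had 7.89 and 3.19. Within the Foxd subfamily Foxd4 and Foxd2 had the highest folds in both replicates, and in replicate 2 these were nearly equal. Foxd4 had 11.6 in replicate 1 and 5.99 in replicate 2, and Foxd2 had 9.52 and 6.003. The Foxd2 pileup of 74 fragments was the highest of all 33 in replicate 2. Foxd1, a kidney stroma factor, had 8.97 and 3.88, and Foxd3, of neural crest and pluripotent cells, had 7.61 and 3.75. The mesenchymal genes of gut and lung spread around the group medians of 8.97 in replicate 1 and 4.44 in replicate 2. Foxl1 had folds of 9.56 in replicate 1 and 4.45 in replicate 2, and Foxf2 had 8.05 and 4.08. Foxf1 had 6.58 and 3.04, the lowest replicate 2 fold of the 11. Foxs1 was lowest in replicate 1 with 6.34, and had 4.44 in replicate 2.

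Ectodermal, neural and sense organ genes, 8 in all, also had overlapping peaks away from other coding gene ends throughout. Of all protein-coding genes 45.3% did. Foxi3, of ear and tooth placodes, had folds of 14.3 in replicate 1 and 6.65 in replicate 2, with 125 and 42 fragments. Foxe3, the lens epithelium factor, had 16.1 and 4.69, with 178 and 37 fragments. Foxi2 had 9.83 and 5.33, and Foxi1, of inner ear and kidney intercalated cells, had 9.50 and 4.01. Another 3 genes lay close together, from 5.86 for Foxb2 to 6.18 for the thyroid factor Foxe1 in replicate 1, with Foxb1, needed for the mammillary bodies, at 6.05. In replicate 2 these 3 genes lay between 3.68 for Foxb1 and 3.81 for Foxb2.

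Among ciliary and retinal regulators, Foxj1, the master gene of motile cilia, had the lowest mean rank of the genes with a site in both lists, with folds of 5.36 in replicate 1 and 3.03 in replicate 2. Foxn4, a retinal progenitor factor, had 7.81 and 3.84. Of the 5 thymus, gonad, germ line and early embryo genes, 3 had a site in both replicates, near the 62.2% of all genes, and 2 had overlapping peaks, where 57.9% of all genes did. Foxl2, the ovarian factor, had folds of 12.3 and 5.02 at different places, while its overlapping pair had 6.07 and 5.02. Foxn1, the thymic epithelial factor lost in nude mice, had 11.998 and 3.91. Foxh1 had 6.16 and 3.36 at different places.

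Foxr1 and Foxr2 had a site in replicate 1 and, also with windows of 5000 bp, none in replicate 2. Of all genes, 86.1% had a site in replicate 1 and 62.2% in both by the 1000 bp rule. Foxr1 had 2 peaks in replicate 1, with folds of 10.7 at its lower-coordinate end and 18.9 at its start, the second supported by 80 fragments and ranked above or equal to 92.0% of all genes with a replicate 1 site. The nearest replicate 2 peak to either end of Foxr1 was 13939 bp away. Foxr2 had 17 fragments and a fold of 4.76, both the lowest of the 36 genes in replicate 1, beyond its lower-coordinate end. Its nearest replicate 2 peak was 6776 bp away. At its listed start, 4207 bp inside the gene, replicate 1 had a further peak with a fold of 10.1 and 37 fragments. A weaker replicate 1 peak there had a fold of 3.17 and 11 fragments. Replicate 2 had none within 1000 bp of that start.

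Median pileups at forkhead genes were above those of all genes while median folds were below them. The highest pileup per gene had a median of 80 fragments in replicate 1 (range 17 to 206), against 61 for all genes with a site, and 37 fragments in replicate 2 (25 to 74), against 34. Median folds were 9.51 in replicate 1, against 10.1 for all genes, and 4.48 in replicate 2, against 5.36. Since the fold is the pileup over the background term, that term was higher as well. Its median at the strongest peak was 8.93 fragments in replicate 1, against 5.49 for all genes, and 8.11 in replicate 2, against 6.08. It exceeded the median of all genes at 32 of 36 forkhead genes in replicate 1 and at 30 of 33 in replicate 2. The lowest term any peak received was 3.78 in replicate 1 and 5.09 in replicate 2. The term was more than 1% above it at 35 of 36 forkhead genes and 76.4% of all genes in replicate 1, and at 33 of 33 and 73.9% in replicate 2. Foxf1 had the highest replicate 1 term, 16.6, and Foxc1 the highest replicate 2 term, 13.2. What raises the term around these genes was not tested.

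**Figure D2:**
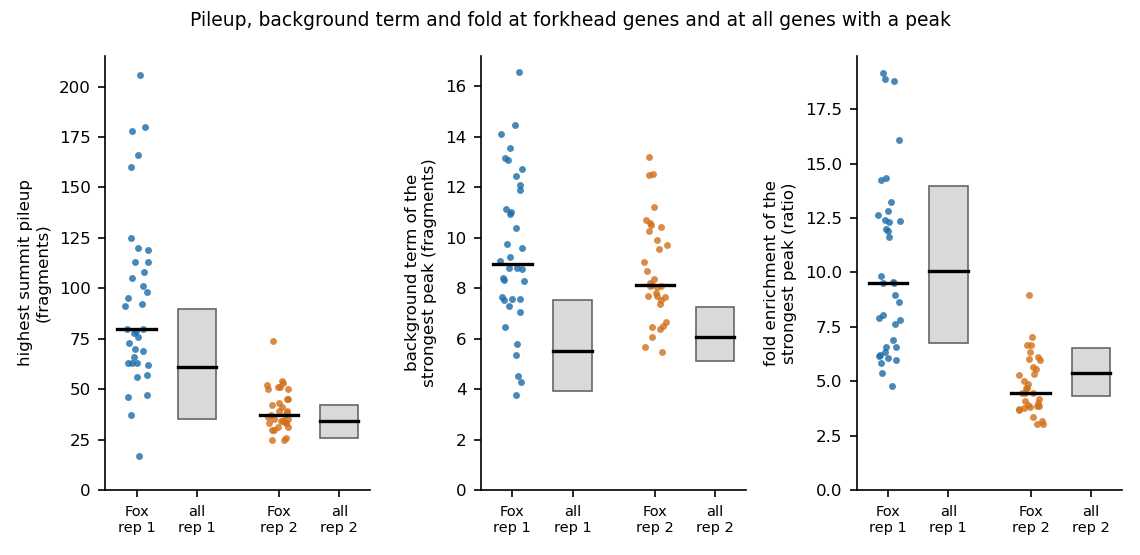
Highest summit pileup per gene, background term of the strongest peak and fold enrichment of that peak (linear axes) at forkhead genes (points, bar at the median) and at all protein-coding genes with a site (box from lower to upper quartile, bar at the median). The forkhead medians are higher for pileup and background term in both replicates and lower for fold, 9.51 against 10.1 in replicate 1 and 4.48 against 5.36 in replicate 2.

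Several peaks per gene were common. At least 2 replicate 1 peaks lay at 29 of 36 forkhead genes (80.6%), against 57.5% of all genes, and at least 2 replicate 2 peaks at 14 of 36 (38.9%), against 14.9%. Forkhead genes are short, with a median length of 3988 bp against 17329 bp for all genes, and 23 of 36 are under 6000 bp. In genes this short the windows take in much of the gene body. All 23 of these had a site in both replicates, where 43.7% of the 5516 coding genes of that length did. The 13 longer forkhead genes had 10, against 68.6% of long genes. Olfactory and vomeronasal receptor genes were not left out of either length class. In the short forkhead genes the median background term was 11.03 fragments in replicate 1 and 9.55 in replicate 2, against 5.58 and 6.64 for short genes in general. In 21 of the 32 overlapping pairs both summits lay inside the gene, with no count over all genes beside this.

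Transcription starts were listed for 23 of the 36 genes in the RefSeq promoter table (GRCm38.p6, whose coordinates on these chromosomes are those of mm10). Foxb1, Foxc2, Foxe1, Foxf1, Foxh1, Foxj1, Foxk1, Foxl1, Foxm1, Foxn2, Foxq1 and Foxs1 were among the 13 not matched. Within 1000 bp of a listed start, 19 of 23 genes (82.6%) had a site in both replicates, against 61.1% of the 17274 genes with a listed start, and at all 19 the peaks overlapped, against 58.6%. Replicate 1 had a site at all 23 starts, against 82.2% of all genes, and replicate 2 at 19, against 62.4%. Foxb2, Foxn3, Foxr1 and Foxr2 had a replicate 1 peak alone there. The Foxn3 peaks described above lay at the outer end of the gene, which is 113593 bp from its listed start. Of 38 replicate 1 summits around these starts 28 lay downstream, and of 24 replicate 2 summits 16 did. Some genes gave several summits, and no count over all genes stands beside these. The median position was 244 bp downstream over all 38 summits of replicate 1 and 137 bp downstream over all 24 of replicate 2.

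**Figure D3:**
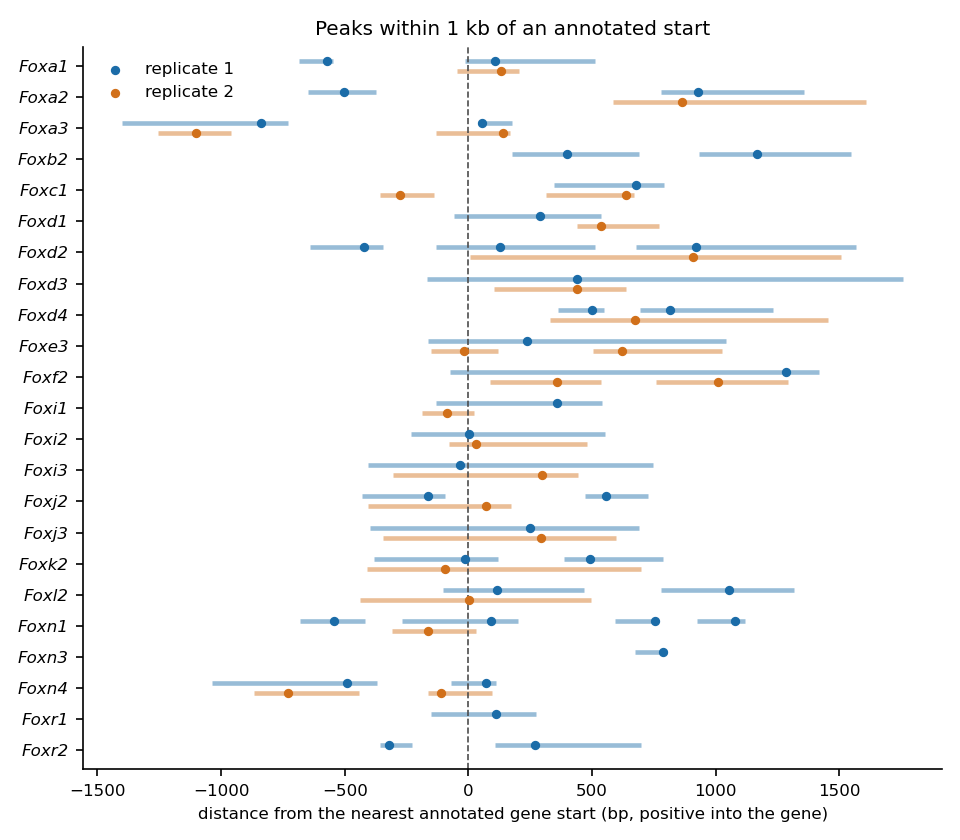
Peaks within 1 kb of a listed start at 23 forkhead genes, drawn as bars from start to end with a dot at the summit, by distance in bp from the nearest listed start (positive into the gene), replicate 1 in blue and replicate 2 in orange. At 19 genes bars of both colours overlap, and Foxb2, Foxn3, Foxr1 and Foxr2 have blue bars only.

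Promoter sequence differed widely among these genes. CpG content was taken as the observed over the expected number of CpG dinucleotides in the 300 bp promoter window (250 bp before to 50 bp after the start). It had a median of 0.688 over the 23 forkhead genes, from 0.151 at Foxr2 to 1.28 at Foxk2, against a median of 0.617 over all genes with a listed start. Over all genes the share with a site in both replicates was 19.3% where the ratio was under 0.2 and 88.1% where it was 0.8 or more. Of the 16 forkhead genes at 0.6 or more, 14 had a site in both replicates (87.5%), close to the 86.2% of all genes in that class, and the same 14 had overlapping peaks, against 83.4%. Of the 7 below 0.6, 6 had one (Foxb2, Foxe3, Foxi1, Foxi2, Foxn1 and Foxn3), against 36.3% of all genes in that class, and at all 6 the peaks overlapped, against 30.6%. At Foxb2 and Foxn3 replicate 2 had no peak within 1000 bp of the listed start. Olfactory and vomeronasal receptor genes were not left out of the shares by CpG class.

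**Figure D4:**
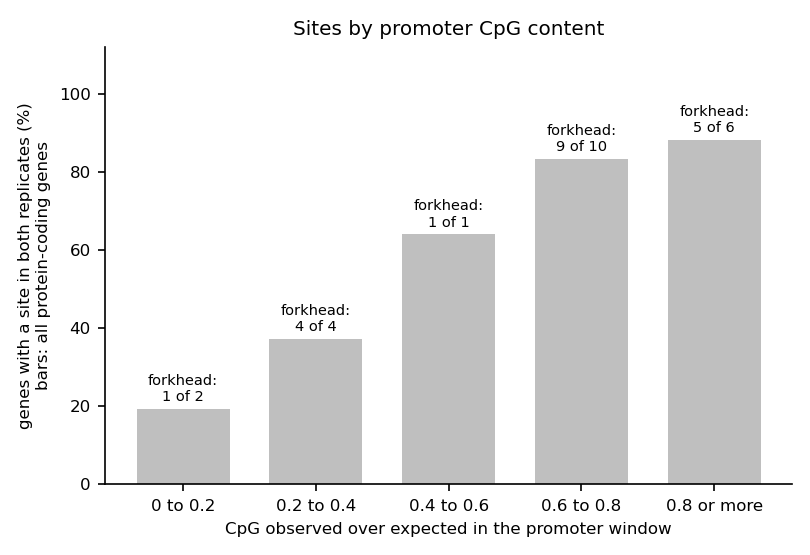
Share of all protein-coding genes with a site in both replicates (bars, in %), by the observed over expected CpG ratio of the promoter window, with the count of forkhead genes written above each bar. The bars climb from 19.3% to 88.1%, and the forkhead counts include 4 of 4 genes between 0.2 and 0.4, where the bar stands at 37.3%.

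The contrast is visible in the 250 bases before the listed start, taken from RefSeq (GRCm38.p6), 5′ to 3′ on the strand of the gene, with CpG dinucleotides in capitals. Foxk2 and Foxi3 are CpG-rich promoters covered by peaks of both libraries, Foxi2 and Foxn1 are CpG-poor promoters with overlapping peaks, and Foxr1 and Foxr2 lacked a replicate 2 peak.
Foxk2, chr11:121259737-121259986, plus strand: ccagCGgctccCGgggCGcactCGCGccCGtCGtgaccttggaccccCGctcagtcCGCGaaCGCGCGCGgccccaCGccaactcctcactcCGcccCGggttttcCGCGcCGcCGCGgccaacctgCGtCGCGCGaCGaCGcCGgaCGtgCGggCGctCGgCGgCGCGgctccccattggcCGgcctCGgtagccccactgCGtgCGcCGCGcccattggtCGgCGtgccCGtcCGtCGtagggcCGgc
Foxi3, chr6:70956356-70956605, plus strand: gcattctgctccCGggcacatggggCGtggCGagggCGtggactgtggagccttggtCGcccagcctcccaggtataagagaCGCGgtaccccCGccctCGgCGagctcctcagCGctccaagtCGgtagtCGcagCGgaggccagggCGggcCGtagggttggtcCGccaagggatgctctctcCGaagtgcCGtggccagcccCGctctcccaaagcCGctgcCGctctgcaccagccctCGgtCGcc
Foxi2, chr7:135410117-135410366, plus strand: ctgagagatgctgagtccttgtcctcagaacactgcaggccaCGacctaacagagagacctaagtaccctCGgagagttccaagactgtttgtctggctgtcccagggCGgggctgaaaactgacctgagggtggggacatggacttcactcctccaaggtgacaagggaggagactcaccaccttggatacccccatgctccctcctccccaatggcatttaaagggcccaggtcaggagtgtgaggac
Foxn1, chr11:78386609-78386858, minus strand: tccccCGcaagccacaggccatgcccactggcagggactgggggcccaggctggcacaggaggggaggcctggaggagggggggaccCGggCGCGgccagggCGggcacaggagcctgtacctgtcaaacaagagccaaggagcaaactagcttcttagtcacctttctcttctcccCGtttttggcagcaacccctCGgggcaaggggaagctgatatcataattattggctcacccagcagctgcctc
Foxr1, chr9:44440869-44441118, minus strand: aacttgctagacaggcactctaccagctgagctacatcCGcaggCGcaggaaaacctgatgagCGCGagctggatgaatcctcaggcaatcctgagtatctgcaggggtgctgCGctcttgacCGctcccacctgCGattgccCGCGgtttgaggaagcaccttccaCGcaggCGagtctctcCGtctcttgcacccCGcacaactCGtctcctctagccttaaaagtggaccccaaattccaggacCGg
Foxr2, chrX:153118538-153118787, plus strand: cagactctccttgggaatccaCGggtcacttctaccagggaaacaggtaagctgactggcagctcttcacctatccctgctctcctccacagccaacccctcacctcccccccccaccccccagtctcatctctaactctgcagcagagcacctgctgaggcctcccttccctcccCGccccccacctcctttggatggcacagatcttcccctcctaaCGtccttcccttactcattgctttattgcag
These stretches hold 48, 24, 3, 7, 15 and 3 CpG dinucleotides in the order printed. Peaks of both replicates covered all 300 bases of the Foxk2 and Foxi3 windows. At Foxi2 they covered 283 bases in replicate 1 and 130 in replicate 2, with summits 1 and 30 bp downstream of the start, and at Foxn1 they covered 300 and 284 bases. The Foxr1 window had 200 bases under its replicate 1 peak. The Foxr2 window had 22, under the weaker replicate 1 peak at its start, with 11 fragments.

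Forkhead words were rare in these windows. The word TGTTTAC or its reverse complement GTAAACA, a core that forkhead factors recognise, occurred in 1 of 25 windows of the 23 genes (some genes list several starts), at Foxa1, and in 3.03% of all 21045 windows. The variant TGTTTGC or its reverse complement GCAAACA occurred in 1 of 25, at Foxj3, and in 4.62% of all windows. Both strands were searched, and both words begin with TGTTT, so no stretch of letters matches both on 1 strand. Both promoters are printed from RefSeq (GRCm38.p6) because they hold the words, shown here in capitals.
Foxa1, chr12:57546112-57546361, minus strand: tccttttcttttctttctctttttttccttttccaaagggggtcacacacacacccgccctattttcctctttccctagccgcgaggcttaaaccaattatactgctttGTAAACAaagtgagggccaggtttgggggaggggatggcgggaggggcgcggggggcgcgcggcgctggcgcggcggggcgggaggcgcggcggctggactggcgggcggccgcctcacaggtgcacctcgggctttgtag
Foxj3, chr4:119539411-119539660, plus strand: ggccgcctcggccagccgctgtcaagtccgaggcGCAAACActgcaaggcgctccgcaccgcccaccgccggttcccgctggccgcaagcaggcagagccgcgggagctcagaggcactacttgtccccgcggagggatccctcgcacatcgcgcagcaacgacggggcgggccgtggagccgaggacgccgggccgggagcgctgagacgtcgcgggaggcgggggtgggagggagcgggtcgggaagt
The Foxa1 word begins at -141 bp from the start and lay under no peak in either replicate. The Foxj3 word begins at -216 bp and lay under a peak in both. A match is a match of letters and does not show binding.

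Some of these genes lie in clusters and share their surroundings, so they are not independent cases. With under 200 kb between neighbouring members, these are Foxf1, Foxc2 and Foxl1 on chromosome 8, Foxq1, Foxf2 and Foxc1 on chromosome 13, and Foxd2 and Foxe3 on chromosome 4. All 8 genes had overlapping peaks, against 57.9% of all genes. Over the 48.3 kb around Foxf1, Foxc2 and Foxl1 replicate 1 had 21 peaks and replicate 2 had 8, of which 8 and 6 lay at these genes. This came to 4.35 replicate 1 peaks per 10 kb, against 2.32 over chromosome 8, and 1.66 replicate 2 peaks, against 0.408. Of the 8 replicate 2 peaks 7 overlapped a replicate 1 peak. The strongest replicate 2 peak there, with a fold of 5.43, lay at an end of Mthfsd, a coding gene between Foxf1 and Foxc2. The replicate 1 peak that it overlapped had a fold of 9.72. The 254 kb around Foxq1, Foxf2 and Foxc1 had 3.10 replicate 1 peaks per 10 kb, against 2.08 over chromosome 13, and 0.589 replicate 2 peaks, against 0.325. The 21.8 kb around Foxd2 and Foxe3 had 2.75, against 2.26 over chromosome 4, and 1.38, against 0.417. Of the peaks counted there, 4 of 6 in replicate 1 and all 3 in replicate 2 lay at the 2 genes, as did 5 of 79 and 6 of 15 at the genes on chromosome 13, so these densities include the sites already counted.

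**Figure D5:**
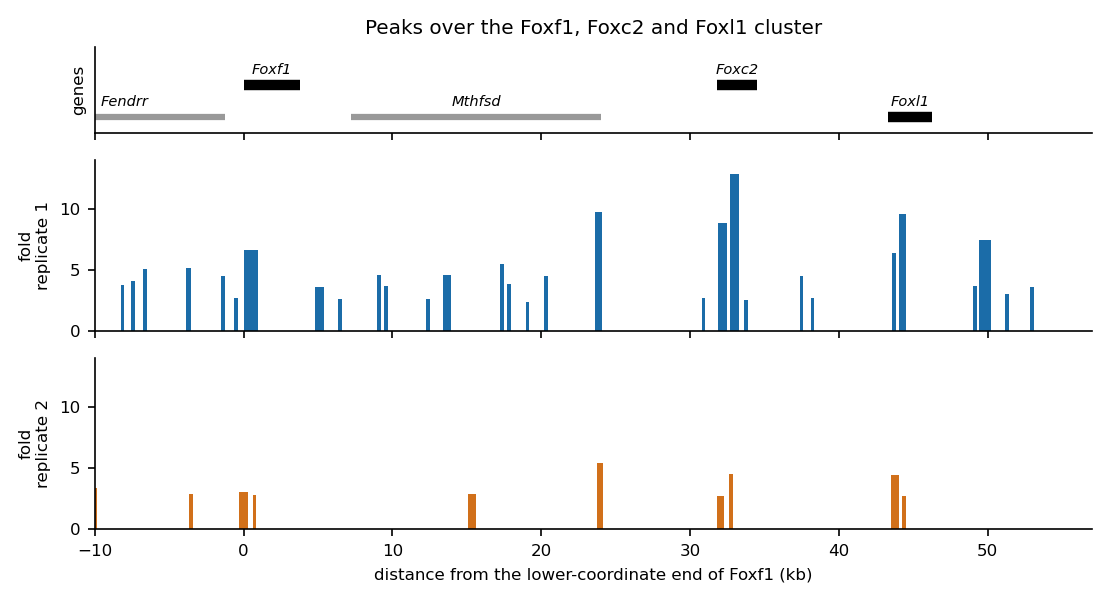
Genes (top; forkhead genes in black, others in grey) and peaks of replicate 1 (blue) and replicate 2 (orange) over the Foxf1, Foxc2 and Foxl1 cluster, by distance in kb from the lower-coordinate end of Foxf1; bar height is fold enrichment (linear axis). Both replicates have peaks over each of the 3 forkhead genes, the highest reaching 12.8 at Foxc2 in replicate 1. The highest replicate 2 peak, with a fold of 5.43, lies at an end of Mthfsd.

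Related gene families were set beside these 36 genes. Foxp genes had a site in both replicates in 3 of 4 cases, and Foxo genes in 4 of 4, against 62.2% of all genes. Pax, Sox and Tbx genes, other developmental regulators, had one in 36 of 41 cases (87.8%), close to the 91.7% of the forkhead genes. Their peaks overlapped in 30 of 41 cases (73.2%), against 88.9% of the forkhead genes. Background terms were raised there too, with medians of 7.97 fragments in replicate 1 and 8.21 in replicate 2. At Foxo genes the medians were 11.9 and 9.50, above the 8.93 and 8.11 of the 36 forkhead genes. Foxp genes had 7.03 and 7.79. The differences between families were not tested.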

How the data were processed

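Fragments were sequenced after CUT&RUN in 2 Foxp3 libraries. The submitters' processing notes name CASAVA 1.4 and the build mm10, and no source used here names an aligner. The authors called peaks with MACS 2.1.1.20160309 per the file headers, on each library alone, in paired-end mode, at a q-value cutoff of 0.01, with no control library and all duplicates kept. The deposited pileup is a signal, the whole number of fragments over the summit, not scaled to depth, and calling reached down to 10 fragments in replicate 1 and 13 in replicate 2. The deposited fold enrichment is a ratio, pileup plus 1 over a background term. That term, estimated from the library itself over up to 10000 bp, was computed back from both. As the divisor of the fold, it holds any constant that MACS2 added to its estimate. Significance was deposited as −log10 of p and of q. Gene ends and promoters came from RefSeq tables (GRCm38.p6).

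Counts were made in Python 3.11.15 with pandas 2.3.3 and numpy 2.4.6, and the calls were tested on simulated peak lists. The simulated lists used genes far apart, so they did not test the rule on neighbouring gene ends. With 1 group of 2 libraries no test was possible, so counts stand beside those of all 21631 genes. Values in detail were given for genes with overlapping peaks away from other ends, the 12 highest by mean within-list percentile of fold, genes without a site in a replicate and the leader of each role group. The values of Foxh1 and Foxj1 were added outside this rule, after they were seen. Members, role groups and lists were chosen with earlier results of these data known. The clusters, the length classes and the background-term comparison were added after values were seen. The values of 1 gene are not reported here by name, though counts and medians include it. Alternatives were other windows, stricter peaks, equal peak numbers, the summit rule, a stricter overlap, noncoding neighbours and each replicate alone.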

Additional observations from a re-analysis of the deposited data

How the results depend on the processing

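With the strongest replicate 1 peaks by fold, in the number replicate 2 holds, 21 forkhead genes had a site in both replicates (49.3% of all genes), 19 had overlapping sites (45.7%) and 16 had them away from other gene ends (35.5%). Ranked by −log10 q, these counts were 32 (54%), 30 (49.9%) and 27 (38.6%). An overlap of at least 50% of both lengths gave 16 genes, and 15 away from other ends, against 43.7% and 33.6% of all genes. With each replicate alone, 33 to 36 genes had a site, 19 to 23 had one at the start, and the median fold was 4.48 to 9.51, against 6.996 for the mean of both. Under all other alternatives each count was within 1.5 times its value. Windows of 5000 bp gave 34 genes in both replicates (78.9% of all genes), with Foxr1 and Foxr2 left, and whole gene bodies gave 34 (77.4%), where 62.2% of all genes had a site by the rule used above. Peaks under 10 and 13 fragments could not be seen. No paired analysis was possible because the data hold 1 group. The cause of these changes was not tested.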
